A study of Mus musculus with 12 samples.

Results

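The proteasome is the barrel-shaped protease that degrades ubiquitin-tagged proteins. Genes were taken from the deposited table of 10126 expressed genes by their symbols, which had to start with Psma, Psmb, Psmc, Psmd, Psme, Psmf or Psmg, and 48 genes met this. By their known roles 14 were subunits of the 20S core (Psma1 to Psma7 of the alpha rings and Psmb1 to Psmb7 of the beta rings), 17 were subunits of the 19S cap (6 ATPases, 3 other base subunits and 8 lid subunits) and 3 were the inducible catalytic subunits of the immunoproteasome (Psmb8, Psmb9 and Psmb10). A further 6 were activators or an inhibitor of the core (Psme1, Psme2, Psme2b, Psme3, Psme4 and Psmf1), 7 were assembly chaperones (Psmd5, Psmd9, Psmd10 and Psmg1 to Psmg4) and 1, Psmc3ip, is a meiotic recombination factor that carries the prefix without being part of the proteasome. The testis subunit Psma8 had at most 5 reads in any library and the thymus subunit Psmb11 had 0 reads in all 12, and neither is in the table.

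The study compared CD4 T cells of female Rnmt fl/fl CD4cre mice (*Rnmt* cKO) with those of Rnmt fl/fl mice lacking CD4cre (control), to ask how the RNA cap methyltransferase RNMT shapes mRNA levels and translation in activated T cells. CD4cre acts in all cells that pass through CD4 expression in the thymus, so the deletion precedes the culture, and both genotypes carried the floxed alleles. Naïve CD4 T cells from lymph nodes were activated for 20 h on plates coated with 5 µg/ml anti-CD3 and 1 µg/ml anti-CD28, and received 0.1 mg/ml cycloheximide for 1 minute before lysis. Total cytoplasmic RNA and ribosome protected fragments (RPF) were sequenced from 3 control and 3 *Rnmt* cKO cultures, which gave 12 libraries. The labels do not say whether cultures came from separate mice, so p-values measure the spread between these libraries.

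The 20S core is a stack of 4 rings in which 3 beta subunits, Psmb6, Psmb7 and Psmb5, cut proteins. The 19S cap binds ubiquitin chains, removes them and threads the unfolded substrate into the core by means of its ATPase ring. Interferon gamma induces Psmb8, Psmb9 and Psmb10, which take the places of Psmb5, Psmb6 and Psmb7 and favour peptides that bind MHC class I, and also induces the PA28 activator made of Psme1 and Psme2. Lymphocytes express immunoproteasome subunits without added interferon.

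*Rnmt* itself checked the labels. Its total RNA was 95.5, 94.1 and 94.3 CPM (counts of a gene relative to its TMM-scaled library size) in control and 29.3, 32.4 and 30.4 CPM in *Rnmt* cKO (log2 fold change -1.62 ± 0.06, SE, adjusted p = 5.8e-06). Its RPF was 104, 87.9 and 98.9 CPM in control and 10.5, 10.4 and 9.60 CPM in *Rnmt* cKO, so the groups stood far apart in both kinds of library. The total RNA libraries held 15079703 to 22629563 reads assigned to genes, and the RPF libraries 4123271 to 10661356. The shallowest was RPF of *Rnmt* cKO replicate 3, which still held 57699 reads of the 48 genes, and the lowest count of any of them in any library was 13.

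The labelled cell type was checked against markers. All 9 CD4 T cell markers were present, with a summed total RNA level of 3432 ± 119 CPM in control and 2731 ± 180 CPM in *Rnmt* cKO (SD, n = 3), and Cd28 was the most abundant. The 7 activated T cell markers, led by Irf4, summed to 2272 ± 151 and 2777 ± 187 CPM in control and *Rnmt* cKO total RNA and to 2968 ± 252 and 4047 ± 226 CPM in RPF. The 4 regulatory T cell markers, led by Il2ra, summed to 343 ± 10.3 and 442 ± 21.9 CPM in total RNA and to 407 ± 19.4 and 552 ± 10.3 CPM in RPF, and neither sum overlapped between genotypes. The 4 markers went both ways. Il2ra, also among the activation markers, had means of 176 and 310 CPM in control and *Rnmt* cKO total RNA. Ikzf2 rose from 10.1 to 21.9 CPM in total RNA and from 2.58 to 6.53 CPM in RPF, without overlap in either. Its adjusted p was 1.3e-04 and 0.0499 by the quasi-likelihood test of edgeR. Ctla4 was at 156 and 110 CPM in total RNA and Foxp3, which defines regulatory T cells, at 0.80 and 0.54 CPM. B cell genes differed between cultures, although the labels give isolation with a kit for naïve CD4 T cells, which should leave B cells out. The 6 markers, led by Ms4a1, summed to 9.92, 6.25 and 35.6 CPM in control total RNA and to 91.9, 110 and 20.2 CPM in *Rnmt* cKO, and to 12.8, 8.59 and 42.8 CPM in control RPF and 139, 151 and 23.9 CPM in *Rnmt* cKO. None of the 6 was at 0 in every library. *Rnmt* cKO replicate 3 therefore had less B cell RNA than control replicate 3, whereas the other pair of *Rnmt* cKO cultures had the most. Summed myeloid markers were at 1.24 ± 0.23 and 1.85 ± 0.72 CPM and NK cell markers at 1.26 ± 0.59 and 3.19 ± 0.32 CPM in control and *Rnmt* cKO total RNA, and CD8 markers at 28.2 ± 11.7 and 19.2 ± 8.48 CPM. The part of these cells and of the state of activation in the results was not tested, and in bulk libraries fewer cells of a type and less RNA per cell cannot be told apart.

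All 48 genes passed the filter on low counts and were tested. Rises and falls are relative to the size of each library, and levels per cell were not measured in these libraries. The study reported less mRNA per cell in activated *Rnmt* cKO cells, so that rises of single genes are overestimated and falls underestimated. By its account footprints give relative and not absolute differences in translation. In total RNA 17 rose and 9 fell in *Rnmt* cKO by the quasi-likelihood test of edgeR at an adjusted p under 0.05, beside 26.3% and 28.0% of the 11519 genes tested. In RPF 9 rose and 5 fell, beside 14.1% and 15.7% of 11428 genes. Library sizes without TMM gave 3 that fell in RPF, and the exact test of edgeR gave 2. In translational efficiency (TE), tested by whether genotype acted differently on RPF than on total RNA, 3 rose and 6 fell, beside 3.24% and 6.57% of 10668 genes. The median log2 fold change of the 48 genes in total RNA was 0.055 (all genes tested -0.0037), that in RPF 0.055 (all genes 0.0080) and that in TE 0.046 (all genes 0.035). Leaving out 1 library moved these counts. In total RNA between 11 and 16 rose, with 11 without control replicate 1, and between 3 and 9 fell, namely 3 if *Rnmt* cKO replicate 1 was left out and 5 if *Rnmt* cKO replicate 2 or control replicate 1 or 2 was. In RPF between 3 and 9 rose (3 if *Rnmt* cKO replicate 1 was left out, 5 if control replicate 2 was and 4 if control replicate 3 was), and between 3 and 6 fell, with 3 without *Rnmt* cKO replicate 1 or 3 or control replicate 1. In TE between 0 and 5 rose, namely 0 if control replicate 2 was left out, 1 if *Rnmt* cKO replicate 1 was and 5 if *Rnmt* cKO replicate 3 was, and between 3 and 7 fell, with 3 without control replicate 1. Their share of protein-coding reads was 1.05 ± 0.02% in control and 1.10 ± 0.04% in *Rnmt* cKO in total RNA, and 1.49 ± 0.02% and 1.59 ± 0.02% in RPF (SD, n = 3).

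Of the 17 cap subunits, 10 rose in total RNA and 0 fell (all genes 26.3% and 28.0%), with a median log2 fold change of 0.28. In RPF 1 rose and 3 fell (all genes 14.1% and 15.7%), with a median of -0.02, and in TE 0 rose and 6 fell (all genes 3.24% and 6.57%), with a median of -0.37. Of the 14 core subunits, beside the same shares of all genes, 1 rose and 3 fell in total RNA (median -0.0099, with no fall called if *Rnmt* cKO replicate 1 or control replicate 1 or 2 was left out), 6 rose and 0 fell in RPF (median 0.22) and 3 rose and 0 fell in TE (median 0.24). For the counts of 0, an unadjusted p under 0.05 gave 0 cap subunits that fell in total RNA, 1 that rose in TE, and 0 core subunits that fell in RPF or in TE, and DESeq2 gave 0 for all 4. The cap subunits held 0.417 ± 0.007% of protein-coding reads in control total RNA and 0.485 ± 0.009% in *Rnmt* cKO, but 0.621 ± 0.015% and 0.623 ± 0.017% in RPF. The core subunits held 0.390 ± 0.014% and 0.374 ± 0.023% in total RNA, and 0.541 ± 0.005% and 0.621 ± 0.002% in RPF. The share of the cap was thus higher in all 3 *Rnmt* cKO libraries of total RNA and overlapped in RPF, whereas the share of the core overlapped in total RNA and was higher in all 3 of RPF.

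**Figure D1:**
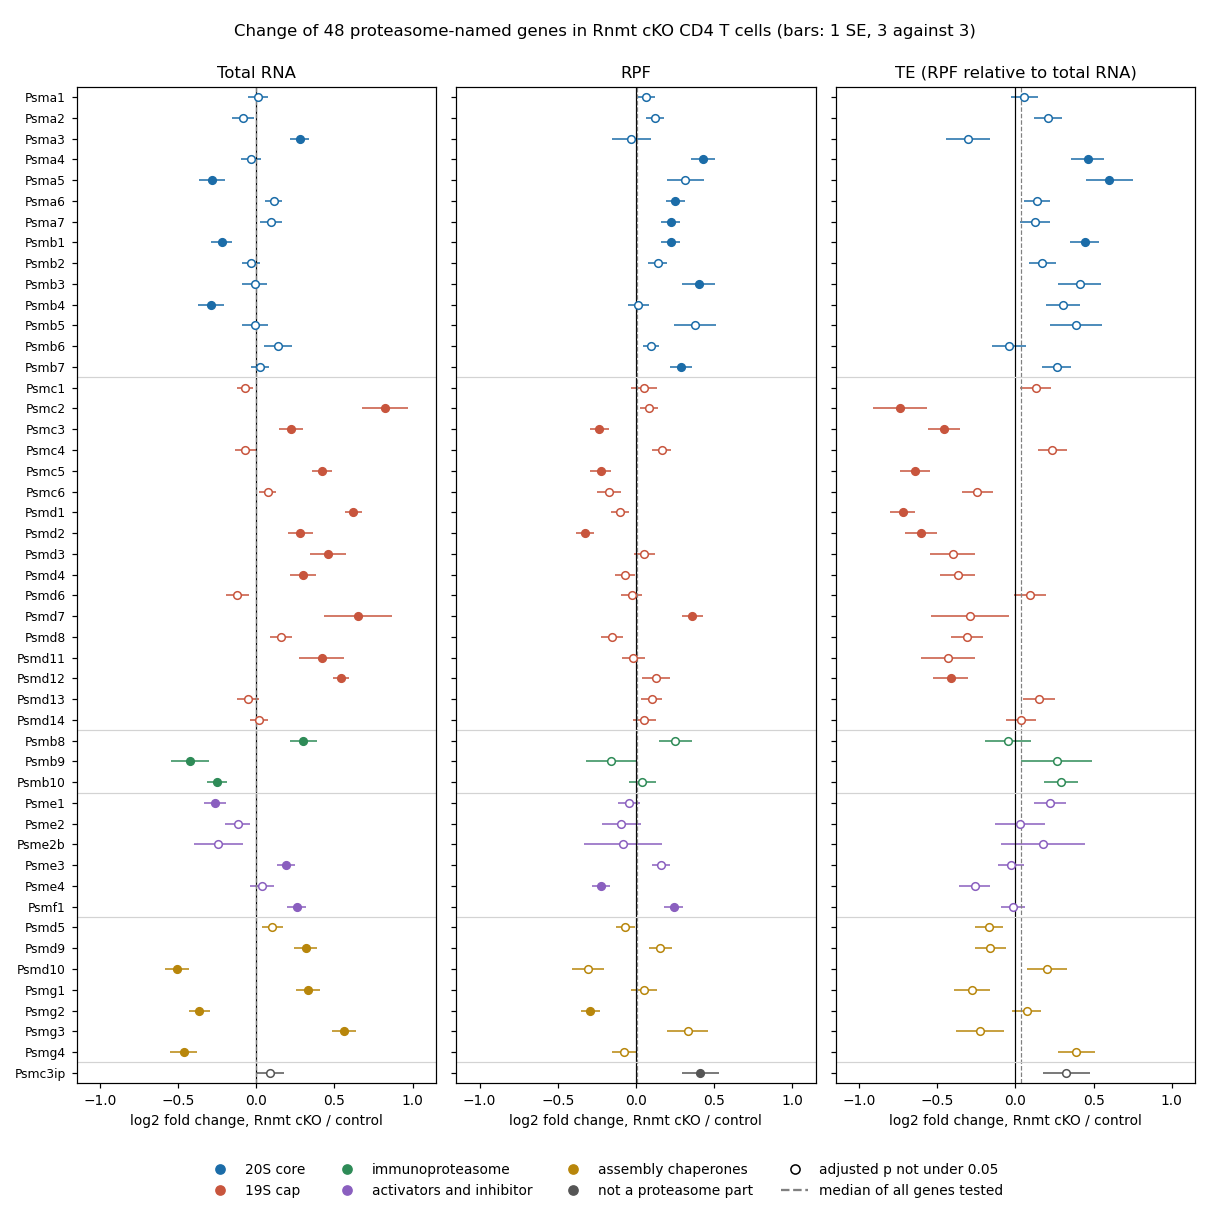
Log2 fold change of *Rnmt* cKO over control (x axis) for each of the 48 genes (rows, coloured by class) in total RNA, RPF and TE, with bars of 1 SE from 3 against 3 cultures. Filled points passed an adjusted p of 0.05, dashed lines mark the median of all genes tested, and red cap subunits lie mostly to the right in total RNA and to the left in TE, whereas blue core subunits lie mostly to the right in RPF.

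Among the 6 ATPases of the base ring, 3 rose in total RNA (Psmc2, Psmc3 and Psmc5), where 26.3% of all genes rose, and Psmc1, Psmc4 and Psmc6 did not pass the test. Psmc2 had the largest rise of any of the 48 genes in total RNA. It was at 73.8, 81.5 and 92.8 CPM in control and at 163, 163 and 113 CPM in *Rnmt* cKO, a log2 fold change of 0.82 ± 0.15 (SE, adjusted p = 0.0023). Its RPF was 385, 375 and 378 CPM in control and 413, 404 and 388 CPM in *Rnmt* cKO, a log2 fold change of 0.08 ± 0.06 (adjusted p = 0.29). Neither kind of library overlapped between groups, but the gap in footprints was small. TE, the ratio of RPF to total RNA, went from 5.22, 4.60 and 4.07 to 2.54, 2.48 and 3.43, and fell by 0.74 on the log2 scale (SE 0.17, adjusted p = 0.017), the largest fall in TE among the 48 genes. Psmc3 and Psmc5, other ATPases of this ring, were called in opposite directions in total RNA and RPF.

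Psmc3 went from 312, 316 and 284 CPM to 346, 329.8 and 386 CPM in total RNA (log2 fold change 0.22 ± 0.08, adjusted p = 0.042). In RPF it went from 430.2, 393 and 402 CPM to 359, 346 and 337 CPM, and fell by 0.23 on the log2 scale (SE 0.06, adjusted p = 0.022). Its groups did not overlap in either kind, and its TE fell by 0.46 (adjusted p = 0.013). The total RNA call of Psmc3 was lost in 5 of the 6 fits without 1 library, all but that without *Rnmt* cKO replicate 2, and its RPF call without *Rnmt* cKO replicate 2 or 3 or control replicate 1. Psmc5 rose in total RNA by 0.42 ± 0.06 on the log2 scale (adjusted p = 9.9e-04), fell by 0.23 in RPF (SE 0.06, adjusted p = 0.031) and fell by 0.64 in TE (adjusted p = 8.0e-04). Its RPF call was lost if replicate 1 or 3 of either genotype was left out, whereas its total RNA and TE calls were kept in all 6 fits.

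All 3 other base subunits rose in total RNA, where 26.3% of all genes did. Psmd1, the largest scaffold subunit of the cap, was at 195, 206 and 203 CPM in control and at 312, 312 and 305 CPM in *Rnmt* cKO (log2 fold change 0.62 ± 0.05, adjusted p = 6.2e-05). These replicates were close to each other and far apart between groups, whereas its RPF, at 451, 437 and 446 CPM in control and 419, 429.9 and 394 CPM in *Rnmt* cKO, did not pass the test (log2 fold change -0.10 ± 0.06, adjusted p = 0.23). TE of Psmd1 fell from 2.31, 2.12 and 2.20 to 1.34, 1.38 and 1.29, by 0.72 on the log2 scale (SE 0.08, adjusted p = 9.7e-05). Psmd2, a scaffold that holds ubiquitin-like domains, was at 256, 290.4 and 261 CPM in control total RNA and at 347, 335 and 299.5 CPM in *Rnmt* cKO (log2 fold change 0.28 ± 0.08, adjusted p = 0.017). Its RPF went the other way, from 402, 406 and 392 CPM to 310.5, 336 and 313 CPM, the largest fall in RPF among the 48 genes, by 0.32 (SE 0.06, adjusted p = 0.0047). Its TE fell by 0.60 (adjusted p = 0.0022). Psmd4, a receptor for ubiquitin chains, rose in total RNA by 0.30 ± 0.08 (adjusted p = 0.018), with a TE change of -0.37 ± 0.11 that did not pass the test (adjusted p = 0.059).

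Of the 8 lid subunits, which include the deubiquitinase Psmd14, 4 rose in total RNA (Psmd3, Psmd7, Psmd11 and Psmd12), where 26.3% of all genes rose. Psmd7, the inactive partner of Psmd14, had 50.0, 52.4 and 71.5 CPM in control total RNA and 112, 98.4 and 63.1 CPM in *Rnmt* cKO, so the groups overlapped (log2 fold change 0.65 ± 0.22, adjusted p = 0.034). In RPF it had 298, 304 and 308 CPM in control and 371, 422 and 376 CPM in *Rnmt* cKO, without overlap (log2 fold change 0.36 ± 0.07, adjusted p = 0.0050). Psmd7 was the only one of the 17 cap subunits taken by symbol that rose in RPF, and Psmd14 passed no test (total RNA log2 fold change 0.02 ± 0.06). Psmd12 rose in total RNA by 0.54 ± 0.05 (adjusted p = 8.3e-05) and its TE fell by 0.42 (SE 0.11, adjusted p = 0.031).

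Replicate 3 of the *Rnmt* cKO total RNA stood apart from the other replicates in some cap genes, as the heat map of the libraries shows. Psmc2, Psmd3, Psmd7 and Psmd11 were at 113, 138, 63.1 and 57.4 CPM there, against 163, 184, 112 and 81.1 CPM in replicate 1, and control replicate 3 was the highest control for all 4 genes. B cell markers were low in the same *Rnmt* cKO culture and highest among controls in the same control, and their part in these 4 genes was not tested. Psmd1, at 305 CPM in replicate 3 and 312 CPM in replicate 1, and Psmd12, at 197 and 203 CPM, differed little between these cultures. Without *Rnmt* cKO replicate 3 the test called 9 cap subunits increased in total RNA and 7 decreased in TE.

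**Figure D2:**
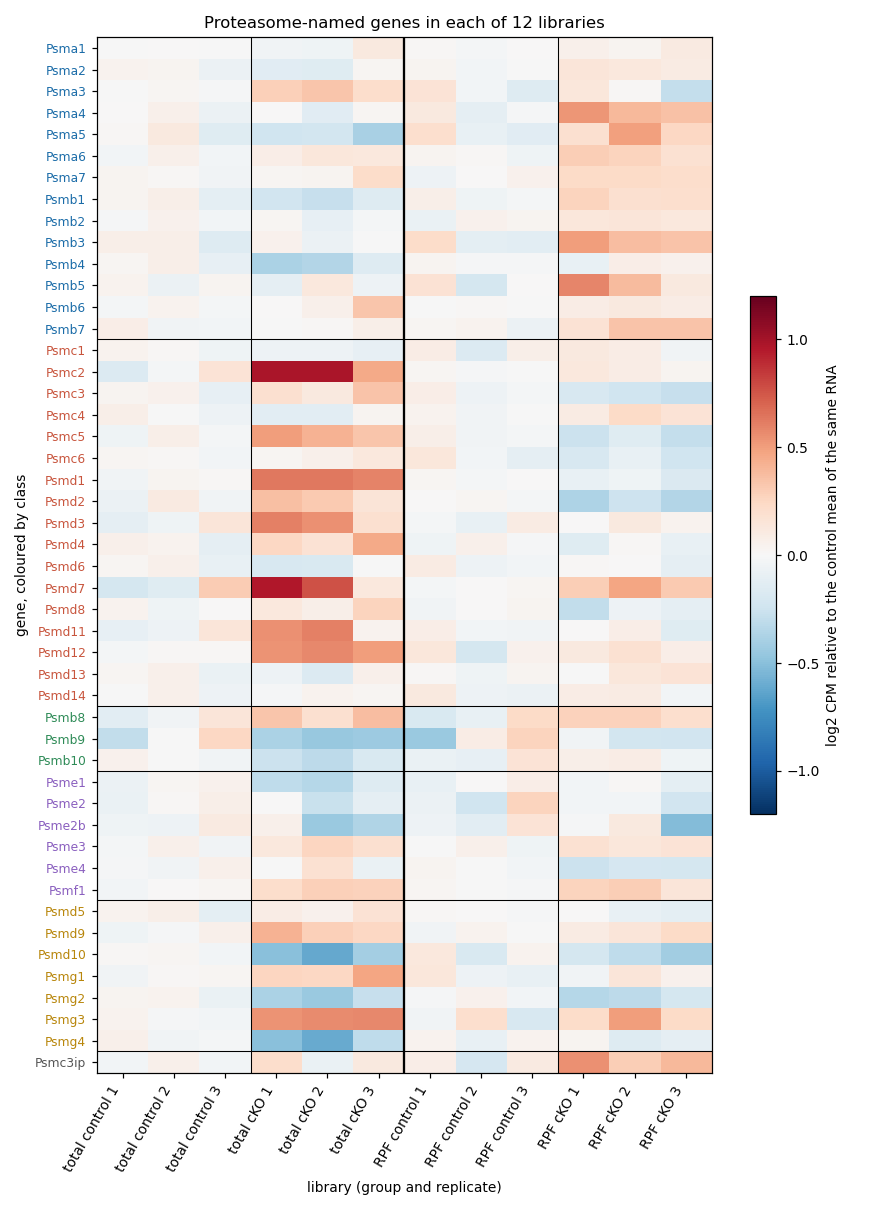
Heat map of the 48 genes (rows, names coloured by class) in the 12 libraries (columns), with colour for the log2 CPM relative to the mean of the 3 control libraries of the same RNA, red above and blue below. Psmc2 and Psmd7 are reddest in total RNA of *Rnmt* cKO replicates 1 and 2, and Psma4 is red in RPF of all 3 *Rnmt* cKO replicates but not in their total RNA.

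Leaving out 1 library at a time moved the cap counts. In total RNA between 6 and 9 cap subunits were called increased, with the 6 reached without control replicate 1, and 5 (Psmc2, Psmc5, Psmd1, Psmd12 and Psmd3) were called in all 6 fits. In TE between 3 and 7 were called decreased, with the 3 reached without control replicate 1, and Psmc5, Psmd1 and Psmd2 were called in all 6. With the culture as a block, which pairs total RNA and RPF of the same number, TE calls numbered 5 that rose and 7 that fell, and Psmd11 (adjusted p = 0.049), Psmb3 (adjusted p = 0.031) and Psmg4 (adjusted p = 0.036) joined them.

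In the core, 10 of 14 subunits had RPF above every control in all 3 *Rnmt* cKO libraries and 0 had it below, beside 22.2% and 24.3% of all genes tested in RPF, and 6 of 14 rose by the test, beside 14.1%. Psma4, an alpha ring subunit, rose most. It was at 210.4, 180.4 and 193 CPM in control RPF and at 282, 255 and 249 CPM in *Rnmt* cKO (log2 fold change 0.43 ± 0.08, adjusted p = 0.0047). In total RNA it was at 164, 171 and 156 CPM and at 165, 149 and 167 CPM, with overlapping groups (log2 fold change -0.03 ± 0.06, adjusted p = 0.68). TE went from 1.28, 1.06 and 1.24 to 1.71, 1.71 and 1.49 and rose by 0.46 ± 0.11 (adjusted p = 0.015). Psma6 and Psma7, also of the alpha ring, rose in RPF by 0.25 ± 0.06 and 0.22 ± 0.06 on the log2 scale (adjusted p = 0.017 and 0.025). Psma3 was the only core subunit that rose in total RNA (log2 fold change 0.28 ± 0.06, adjusted p = 0.0060), with an RPF change of -0.03 ± 0.12.

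Psma5 had the largest rise in TE among the 48 genes. Its total RNA was 77.1, 82.8 and 68.9 CPM in control and 64.6, 65.3 and 58.2 CPM in *Rnmt* cKO (log2 fold change -0.28 ± 0.08, adjusted p = 0.021). Its RPF was 71.8, 58.5 and 56.8 CPM in control and 71.2, 87.5 and 74.3 CPM in *Rnmt* cKO, with overlap (log2 fold change 0.32 ± 0.12, adjusted p = 0.074). TE went from 0.93, 0.71 and 0.82 to 1.10, 1.34 and 1.28, without overlap, and rose by 0.60 ± 0.15 (adjusted p = 0.023).

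In the beta rings the noncatalytic Psmb1 fell in total RNA and rose in RPF. It was at 301, 309.5 and 272 CPM in control total RNA and 251, 242 and 264 CPM in *Rnmt* cKO (log2 fold change -0.22 ± 0.07, adjusted p = 0.026). In RPF it was at 401, 370.4 and 378 CPM and at 462, 439 and 439.7 CPM (log2 fold change 0.22 ± 0.06, adjusted p = 0.025). The groups did not overlap in either, and TE went from 1.33, 1.20 and 1.39 to 1.84, 1.81 and 1.67, a rise of 0.44 ± 0.09 (adjusted p = 0.0086). The total RNA call of Psmb1 was kept only without replicate 3 of either genotype, and its RPF call was lost without *Rnmt* cKO replicate 1 or control replicate 2 or 3. Psmb3 was at 70.3, 55.6 and 55.4 CPM in control RPF and at 85.4, 78.0 and 76.5 CPM in *Rnmt* cKO (log2 fold change 0.40 ± 0.11, adjusted p = 0.024). In total RNA it was at 62.7, 62.5 and 53.7 CPM and at 61.9, 56.6 and 59.3 CPM, with overlap. Psmb4, whose groups did not overlap in total RNA, fell there by 0.29 (SE 0.08, adjusted p = 0.017), with an RPF change of 0.02 ± 0.07.

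Leaving out 1 library at a time moved the core counts too. In total RNA between 0 and 3 core subunits fell, namely 0 if *Rnmt* cKO replicate 1 or control replicate 1 or 2 was left out and 1 if *Rnmt* cKO replicate 2 was. The total RNA call of Psma5 was kept only without *Rnmt* cKO replicate 2 or control replicate 3, and that of Psmb4 only without replicate 3 of either genotype. Between 1 and 7 core subunits were called increased in RPF when 1 library was left out, namely 1 if control replicate 3 was left out, 2 if *Rnmt* cKO replicate 1 was and 3 if control replicate 2 was, and Psma4 alone was called in all 6 fits. In TE between 0 and 4 were called, namely 0 if control replicate 2 was left out and 1 if *Rnmt* cKO replicate 1 was. The log2 fold change was above 0 for 13 of 14 core subunits in RPF and for 12 of 14 in TE. The median of all genes tested was also above 0, at 0.0080 in RPF and 0.035 in TE. The subunits share libraries and are not independent replicates.

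Many core genes have processed pseudogenes elsewhere, and reads that match several places were left out of the counts. Of all words of 28 bases in the coding sequence, about the length of a footprint, 92.4% of Psma3, 90.4% of Psma5, 85.9% of Psmb3, 80.4% of Psmb5 and 63.0% of Psma4 occur in another gene at another locus, as do 54.0% of Psmd11 and 53.4% of Psmc1 of the cap and 80.6% of Psme2 and 81.0% of Psme2b, which share them with each other. These 9 genes are counted from a part of their sequence and their values are uncertain. Without them 4 of 9 core subunits rose in RPF (all genes 14.1%) and 1 of 9, Psmb1, rose in TE (all genes 3.24%), with medians of 0.14 and 0.17. Of 15 cap subunits, 9 rose in total RNA (all genes 26.3%) and 6 fell in TE (all genes 6.57%). All 6 TE calls of the cap are thus of genes with less than 50% shared, of which Psmd2 had 49.5%, whereas Psma4 and Psma5, 2 of the 3 TE calls of the core, are not.

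**Figure D3:**
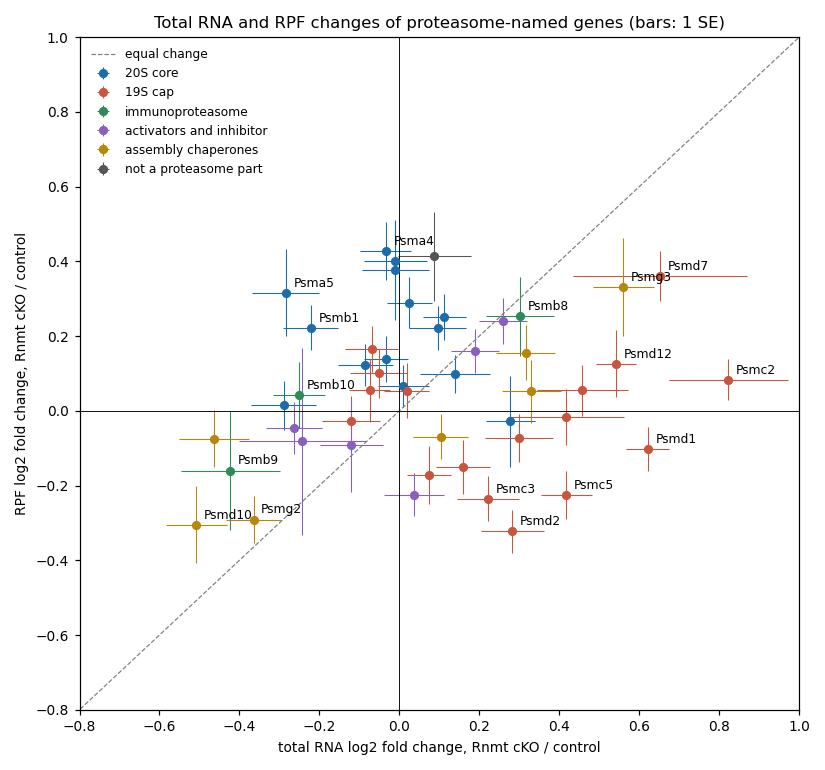
Log2 fold change in RPF (y axis) against that in total RNA (x axis) for the 48 genes, coloured by class, with bars of 1 SE and a dashed line of equal change. Cap subunits such as Psmd1, Psmc5 and Psmd2 lie to the lower right of the line, with total RNA raised and RPF near or below 0, and core subunits such as Psma4, Psma5 and Psmb1 lie above it.

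Core and cap genes also differ in length. The coding sequences of the core run from 603 to 831 bases (median 762) and those of the cap from 930 to 2859 bases (median 1266). Across the 48 genes Spearman's rho of coding length with the TE log2 fold change was -0.62. It was -0.61 within the 17 cap subunits and 0.16 within the 14 core subunits, and -0.21 across 9985 protein-coding genes. These are correlations across genes, which share libraries and are not independent replicates, and the part of length in the difference between core and cap was not tested.

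The immunoproteasome subunits did not move as a unit. In total RNA Psmb8 rose and Psmb9 and Psmb10 fell, where 26.3% of all genes rose and 28.0% fell. In RPF 0 of 3 passed the test in either direction (1 at an unadjusted p under 0.05 and 1 by DESeq2, Psmb8 in both), where 14.1% of all genes rose and 15.7% fell. Psmb8 and Psmb9 lie next to the peptide transporter genes Tap1 and Tap2 in the MHC, at chr17:34197721-34201454 and chr17:34181987-34187764 (GRCm38), and Psmb10 lies on chromosome 8. The promoter windows of Psmb8, Psmb9 and Psme1, which interferon gamma is known to induce, and of the constitutive Psmb5 are printed 5′ to 3′ on the strand of each gene, from 250 bases before the start site to 50 bases after it. They come from RefSeq (GRCm38.p6), at chr17:34197945-34198244 on the plus strand, chr17:34187281-34187580 on the minus strand, chr14:55578244-55578543 on the plus strand and chr14:54617946-54618245 on the minus strand. Capitals mark the letters of a STAT site (TTCNNNGAA) in Psmb8, of an interferon-stimulated response element (GAAA, any 2 bases and GAAA, here on the other strand) in Psme1 and of an antioxidant response element (TGACNNNGC), which NRF1 and NRF2 bind, in Psmb5.
Psmb8: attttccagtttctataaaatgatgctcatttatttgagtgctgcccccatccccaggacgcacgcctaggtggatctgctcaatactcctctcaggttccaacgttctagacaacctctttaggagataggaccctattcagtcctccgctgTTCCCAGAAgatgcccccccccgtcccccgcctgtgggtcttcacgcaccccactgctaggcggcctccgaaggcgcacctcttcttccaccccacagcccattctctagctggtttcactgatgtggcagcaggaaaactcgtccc
Psmb9: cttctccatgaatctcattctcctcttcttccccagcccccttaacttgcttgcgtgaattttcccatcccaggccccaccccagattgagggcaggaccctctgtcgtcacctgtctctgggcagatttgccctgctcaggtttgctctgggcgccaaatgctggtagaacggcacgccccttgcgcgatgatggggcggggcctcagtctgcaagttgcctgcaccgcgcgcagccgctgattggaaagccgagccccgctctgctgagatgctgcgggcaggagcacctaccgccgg
Psme1: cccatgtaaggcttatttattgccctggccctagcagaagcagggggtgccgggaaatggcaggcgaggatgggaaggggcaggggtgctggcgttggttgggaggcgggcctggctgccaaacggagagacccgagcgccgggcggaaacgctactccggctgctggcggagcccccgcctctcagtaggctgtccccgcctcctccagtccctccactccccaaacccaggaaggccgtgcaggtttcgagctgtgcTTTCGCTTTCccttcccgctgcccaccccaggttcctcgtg
Psmb5: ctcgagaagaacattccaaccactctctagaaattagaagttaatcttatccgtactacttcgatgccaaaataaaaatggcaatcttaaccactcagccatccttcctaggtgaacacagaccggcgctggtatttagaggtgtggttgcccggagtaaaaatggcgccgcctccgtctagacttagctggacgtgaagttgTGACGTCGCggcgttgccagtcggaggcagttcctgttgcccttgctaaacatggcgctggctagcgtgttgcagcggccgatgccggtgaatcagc

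The RefSeq start sites of Psmb8, Psmb9 and Psme1 lie inside their gene spans in GENCODE vM21, the source of the spans given here, and their windows fall wholly within those spans. The STAT letters of Psmb8 start 97 bases before its RefSeq start site, and the Psmb9 window held none of the 3 motifs. The letters in Psmb5 start 47 bases before its start site, whereas those in Psme1 start 9 bases after its own. Of the 48 genes, 41 had a window. On both strands, the antioxidant response element was found in 6 of 41 (14.6%) beside 14.0% of the windows of 27025 genes. The interferon-stimulated response element was in 5 of 41 (12.2%) beside 3.99% and the STAT site in 3 of 41 (7.32%) beside 9.55%. Like that of Psme1, the interferon-stimulated response element of Psmg4 lies after the start site, from 15 bases on. These are matches of letters and not shown to be sites.

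Psmb8 total RNA was 273, 289 and 330.0 CPM in control and 375, 340.4 and 385 CPM in *Rnmt* cKO, without overlap (log2 fold change 0.30 ± 0.09, adjusted p = 0.018). Its RPF was 543, 579.7 and 723 CPM and 746, 747 and 707 CPM, with overlap through control replicate 3 (log2 fold change 0.25 ± 0.10, adjusted p = 0.10). The constitutive Psmb5, which it replaces, was at 34.1, 31.6 and 33.9 CPM in control total RNA and at 30.8, 36.2 and 31.8 CPM in *Rnmt* cKO (log2 fold change -0.01 ± 0.08). In RPF Psmb5 was at 82.2, 62.9 and 72.9 CPM and at 109, 94.8 and 78.7 CPM, with overlap (log2 fold change 0.38 ± 0.13, adjusted p = 0.065).

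Psmb9 went the other way. In total RNA it was at 104, 127 and 152 CPM in control and at 98.0, 92.6 and 94.3 CPM in *Rnmt* cKO, and fell by 0.42 (SE 0.12, adjusted p = 0.020). In RPF it was at 171, 248 and 280.2 CPM and at 226, 199.9 and 199 CPM, with overlap (log2 fold change -0.16 ± 0.16, adjusted p = 0.48). The control cultures varied more than the *Rnmt* cKO cultures in both. Its partner Psmb6 was at 180.2, 188 and 180.3 CPM in control total RNA and at 183, 190.4 and 230.1 CPM in *Rnmt* cKO (log2 fold change 0.14 ± 0.09). In RPF Psmb6 was at 277, 281 and 276 CPM and at 296, 302 and 295 CPM, without overlap but short of the threshold (log2 fold change 0.10 ± 0.05, adjusted p = 0.18). Tap1, which overlaps Psmb9 on the opposite strand, is known to share its promoter region and was named here after its values were seen, rose in total RNA by 0.31 ± 0.09 (adjusted p = 0.020) and in RPF by 0.39 ± 0.12 (adjusted p = 0.035). The reads were counted by strand.

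Psmb10 was at 55.4, 53.3 and 51.9 CPM in control total RNA and at 44.8, 42.9 and 47.2 CPM in *Rnmt* cKO, and fell by 0.25 (SE 0.07, adjusted p = 0.012). Its RPF, at 90.8, 89.5 and 108 CPM and at 101, 102 and 92.5 CPM, overlapped (log2 fold change 0.04 ± 0.09). Its partner Psmb7 was at 162, 148 and 149 CPM and at 152, 154 and 161 CPM in total RNA, with overlap, and rose in RPF from 348, 351 and 325 CPM to 386, 432 and 434 CPM (log2 fold change 0.29 ± 0.07, adjusted p = 0.015). In TE 0 of the 3 immunoproteasome subunits passed the test (1, Psmb10, at an unadjusted p under 0.05 and 0 by DESeq2), where 3.24% of all genes rose and 6.57% fell. None of the 3 total RNA calls was made in all 6 fits without 1 library, Psmb8 being lost without control replicate 1 or 2, Psmb9 if *Rnmt* cKO replicate 1 or 2 or control replicate 2 was left out, and Psmb10 if replicate 1 of either genotype was.

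The ratio of each inducible subunit to the subunit it replaces does not depend on library scaling. On the log2 scale the ratio of Psmb9 to Psmb6 in total RNA was -0.80, -0.57 and -0.25 in control and -0.90, -1.04 and -1.29 in *Rnmt* cKO, a difference of -0.54. The ratio of Psmb10 to Psmb7 was -1.54, -1.48 and -1.52 and -1.76, -1.84 and -1.77, a difference of -0.28. Both were lower in 3 of 3 *Rnmt* cKO cultures, and both had p = 0.10 in a two-sided exact permutation test, the smallest that 3 against 3 can give. The ratio of Psmb8 to Psmb5 differed by 0.32 (exact permutation p = 0.20), and in RPF the 3 ratios differed by -0.11, -0.23 and -0.25 (p = 0.70, 0.40 and 0.30). After adjustment over the 6 ratios the p-values lay between 0.30 and 0.70, and this exact test cannot go below 0.10 for 3 against 3.

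**Figure D4:**
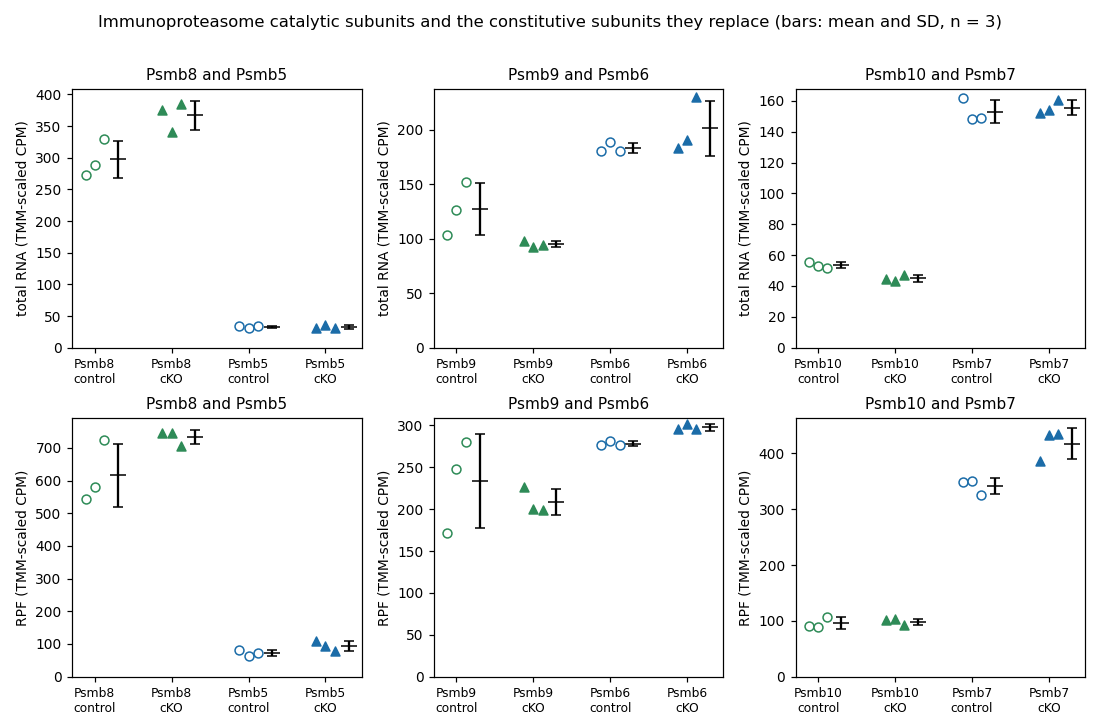
TMM-scaled CPM (y axes, from 0) of Psmb8, Psmb9 and Psmb10 (green) and of the constitutive subunits Psmb5, Psmb6 and Psmb7 (blue) in total RNA (top) and RPF (bottom), with open circles for the 3 control and filled triangles for the 3 *Rnmt* cKO cultures, and bars for the mean and SD. In total RNA the *Rnmt* cKO points lie above all control points for Psmb8 and below them for Psmb9 and Psmb10, and in RPF the groups of these 3 genes overlap.

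The activators of the core were divided. Psme1 of the PA28 ring was at 305, 326 and 333 CPM in control total RNA and at 260.1, 254 and 289 CPM in *Rnmt* cKO, and fell by 0.26 (SE 0.07, adjusted p = 0.014), a call lost without *Rnmt* cKO replicate 1 or 2. Its RPF, at 492, 524 and 555 CPM and at 512, 529 and 482 CPM, overlapped. Psme2, with which it forms the ring, was at 95.7, 102 and 106 CPM and at 102, 84.2 and 93.9 CPM in total RNA and at 159, 141 and 199.7 CPM and 163, 163 and 142 CPM in RPF, with overlap in both. Psme3, the nuclear activator, rose in total RNA by 0.19 ± 0.06 (adjusted p = 0.028), and Psme4, the PA200 activator, fell in RPF by 0.22 (SE 0.06, adjusted p = 0.020). The Psme4 call was lost by DESeq2 (adjusted p = 0.066) and without replicate 1 of either genotype, and the Psme3 call without *Rnmt* cKO replicate 2 or control replicate 1 or 3. Psmf1, the inhibitor PI31, rose in total RNA by 0.26 ± 0.06 (adjusted p = 0.0076) and in RPF by 0.24 ± 0.06 (adjusted p = 0.020), where the call was kept only without *Rnmt* cKO replicate 3. None of these 6 genes passed the test in TE (1 at an unadjusted p under 0.05, Psme4, and 0 by DESeq2), where 3.24% of all genes rose and 6.57% fell.

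Of the 7 assembly chaperones 3 rose and 3 fell in total RNA, beside 26.3% and 28.0% of all genes, and all 6 calls were made in every fit without 1 library. Psmd10, a chaperone of the ATPase ring also called gankyrin, fell most of the 48 genes. It was at 35.9, 36.1 and 34.8 CPM in control and at 25.05, 23.2 and 26.7 CPM in *Rnmt* cKO, and fell by 0.51 (SE 0.08, adjusted p = 9.2e-04). Its RPF was 61.0, 49.0 and 57.2 CPM and 48.2, 45.2 and 41.8 CPM, without overlap (log2 fold change -0.30 ± 0.10, adjusted p = 0.056). Psmd9, which chaperones the same ring, rose in total RNA by 0.32 ± 0.07 (adjusted p = 0.0074).

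Psmg1 and Psmg2 form a dimer that guides the alpha ring, and the 2 genes moved apart. Psmg1 rose in total RNA by 0.33 ± 0.07 (adjusted p = 0.0066), and Psmg2 fell by 0.36 (SE 0.07, adjusted p = 0.0027). Psmg2 also had the second largest fall in RPF among the genes that passed the test, from 167, 175 and 165 CPM to 133, 136 and 146 CPM, by 0.29 (SE 0.06, adjusted p = 0.010), where it was at 90.4, 91.1 and 83.4 CPM and at 67.9, 64.7 and 73.1 CPM in total RNA. Psmg3 and Psmg4, which form the other dimer, were also opposed, with Psmg3 raised by 0.56 ± 0.08 (adjusted p = 5.7e-04) and Psmg4 lowered. Psmg4 total RNA was 54.5, 50.7 and 51.5 CPM and 36.9, 34.3 and 42.2 CPM, and fell by 0.46 (SE 0.09, adjusted p = 0.0028), whereas its RPF, at 99.3, 90.6 and 99.5 CPM and at 99.0, 86.6 and 89.3 CPM, overlapped (log2 fold change -0.07 ± 0.08). Psmc3ip, outside the proteasome, rose in RPF from 26.5, 21.9 and 27.0 CPM to 36.7, 30.9 and 33.0 CPM (log2 fold change 0.41 ± 0.12, adjusted p = 0.032), and was at 24.6, 26.4 and 24.7 CPM and at 29.3, 23.9 and 27.3 CPM in total RNA. Its RPF call was lost by DESeq2 (adjusted p = 0.051) and in 4 of the 6 fits without 1 library, namely without *Rnmt* cKO replicate 1 or 3 or control replicate 1 or 2.

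Levels of different genes were compared per length, as RPF per coding length scaled to the same sum in each library (TPM). In control, Psma7 (1109 ± 48), Psmb2 (1049 ± 57), Psmb4 (956 ± 13) and Psma1 (934 ± 5) were the highest of the 48 genes (SD, n = 3), and Psmb8 (875 ± 137) came next, within its own spread of Psmb4 and Psma1. Psmb9 was at 418 ± 102 and Psmb10 at 138 ± 15, against 459 ± 7 for Psmb6 and 484 ± 21 for Psmb7. Core subunits are built into the core in equal numbers, except that Psmb8, Psmb9 and Psmb10 can take the places of Psmb5, Psmb6 and Psmb7. The SD of the log2 levels of the 14 core subunits, averaged over the 3 libraries, was 1.34 in control RPF and 1.25 in control total RNA. The part of this replacement in the spread and in the low level of Psmb5 was not tested. The lowest 4 of the core, Psma5 (101 ± 13), Psmb5 (108 ± 14), Psmb3 (116 ± 16) and Psma3 (131 ± 14), were the 4 with the most words shared with another gene. The SD over the 9 core subunits with less than 50% shared was 0.49 in control RPF and 0.72 in control total RNA. For the cap the SD was 0.59 in control RPF over 17 subunits and 0.43 over the 15 with less than 50% shared, and 0.84 and 0.68 in control total RNA. Since reads that match a copy were not counted, levels of these genes can be too low, and the ratio of Psmb8 to Psmb5 footprints per length, 8.21 ± 1.67 in control and 7.56 ± 1.02 in *Rnmt* cKO, can be too high.

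**Figure D5:**
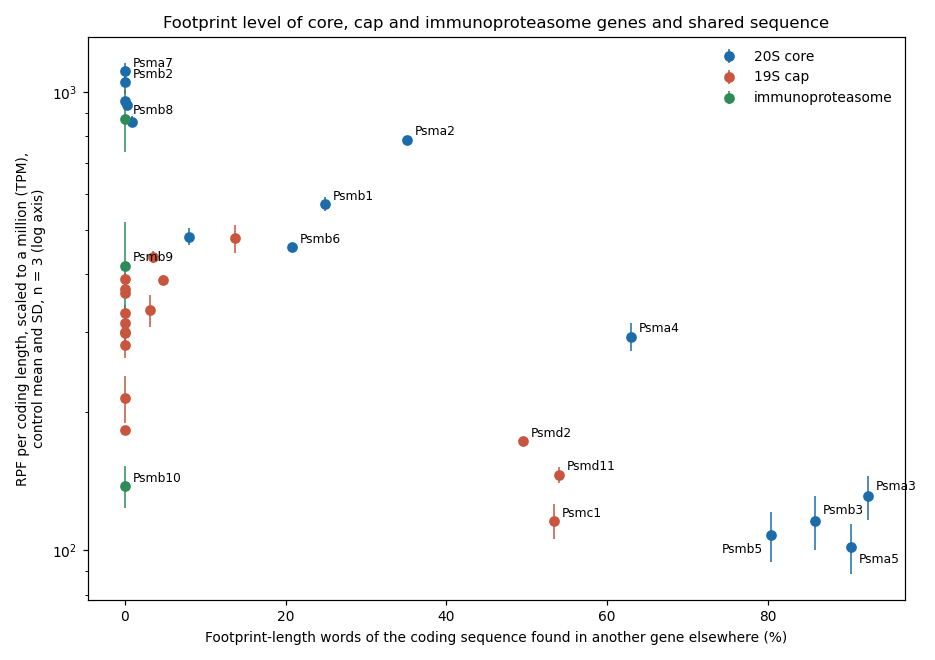
RPF per coding length in control (y axis, TPM on a log scale, mean and SD of 3 cultures) against the percentage of footprint-length (28-base) words of the coding sequence that occur in another gene (x axis), for the core (blue), cap (red) and immunoproteasome (green) genes. Core subunits with under 40% shared lie between 459 and 1109, and those with over 80% between 101 and 131.

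Genes that make, control or feed the proteasome were counted in lists. Of 9 other proteasome genes, 5 rose and 0 fell in total RNA (median log2 fold change 0.27), beside 26.3% and 28.0% of all genes. In RPF 3 rose and 0 fell (median 0.25), beside 14.1% and 15.7% of all genes. Adrm1, a ubiquitin receptor of the cap, rose in total RNA from 8.70 ± 1.35 to 18.6 ± 1.82 CPM (log2 fold change 1.09 ± 0.13, adjusted p = 3.5e-04). Its RPF went from 20.8 ± 4.08 to 24.6 ± 2.26 CPM and did not pass the test (adjusted p = 0.26), and its TE fell by 0.84, as in 6 of the 17 cap subunits. Usp14, a deubiquitinase on the cap, and Txnl1, a thioredoxin found on the cap, rose in total RNA by 0.33 ± 0.07 and 0.35 ± 0.07. Pomp, the maturation chaperone of the core, rose in RPF from 325 ± 17 to 389 ± 21 CPM (log2 fold change 0.26 ± 0.07, adjusted p = 0.021), with a total RNA change of 0.08 ± 0.06 that did not pass the test. Sem1, also of this list and a subunit of the cap, rose in RPF by 0.33 ± 0.10 (adjusted p = 0.043), and its total RNA change of -0.07 ± 0.09 did not pass. In TE 0 of the 9 genes rose and 1 fell, Adrm1, beside 3.24% and 6.57% of all genes.

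Of 10 genes for the transcriptional control of proteasome genes, 6 rose and 2 fell in total RNA (all genes 26.3% and 28.0%) and 4 rose and 1 fell in RPF (all genes 14.1% and 15.7%). Nfe2l1, which encodes the factor NRF1, rose in total RNA from 61.3 ± 5.00 to 88.3 ± 6.90 CPM (log2 fold change 0.53 ± 0.08, adjusted p = 0.0012) and in RPF by 0.27 ± 0.06 (adjusted p = 0.012). Ngly1, the deglycosylase that activates NRF1, fell by 1.08 in total RNA (from 93.8 ± 2.89 to 44.3 ± 5.12 CPM) and by 1.11 in RPF. Nfe2l2, encoding NRF2, fell in total RNA by 0.33 (SE 0.08, adjusted p = 0.0097), with an RPF change of -0.33 ± 0.11 that did not pass the test (adjusted p = 0.056). Mafk and Maff encode small Maf proteins, the partners of both factors. Mafk rose in total RNA by 0.26 ± 0.08 (adjusted p = 0.024) and in RPF by 0.63 ± 0.09 (adjusted p = 0.0022), and Maff rose in total RNA by 0.62 ± 0.14 (adjusted p = 0.0060).

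Of 17 genes for ubiquitin, its activating enzymes and shuttle factors, 7 rose and 4 fell in total RNA (all genes 26.3% and 28.0%), 2 rose and 4 fell in RPF (all genes 14.1% and 15.7%), and 1 rose and 5 fell in TE (all genes 3.24% and 6.57%). The shuttle factor Ubqln2 rose in total RNA by 0.93 ± 0.15 and fell in RPF by 0.28 (SE 0.07, adjusted p = 0.020), the same pair of directions as Psmc3, Psmc5 and Psmd2. Nploc4, a cofactor of the unfoldase VCP, rose in total RNA by 0.80 ± 0.05, with an RPF change of 0.04 ± 0.07.

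Of 12 genes for MHC class I antigen processing, 5 rose and 1 fell in each kind of library, against 26.3% and 28.0% of all genes in total RNA and 14.1% and 15.7% in RPF. H2-D1, a class I heavy chain, rose by 0.38 ± 0.08 in total RNA and by 0.60 ± 0.11 in RPF, Tapbpl by 0.49 ± 0.12 and 0.54 ± 0.11, and Tap2 by 0.43 ± 0.09 and 0.52 ± 0.12. A pair of genes named after their values were seen did otherwise. Pdia3, a chaperone of the peptide loading complex, rose in total RNA by 0.45 ± 0.15, fell in RPF by 0.41 (SE 0.06, adjusted p = 0.0026) and fell in TE by 0.86 (SE 0.18, adjusted p = 0.0079), and Canx, the chaperone calnexin, fell in total RNA by 0.43 (SE 0.06, adjusted p = 8.5e-04). Of 16 genes of the interferon gamma response, 5 rose and 1 fell in total RNA, and of the 15 tested in RPF 5 rose and 2 fell, against the same shares of all genes. Ifng itself rose from 2.14 ± 0.845 to 20.2 ± 3.11 CPM in total RNA and from 2.53 ± 0.41 to 36.8 ± 6.17 CPM in RPF (log2 fold change 3.24 ± 0.24 and 3.84 ± 0.19). Irf8, which B cells also express, rose in total RNA by 1.69 ± 0.32 and Socs1, an inhibitor of interferon signalling, by 1.27 ± 0.17. The falls, named after their values were seen, were of Ifngr1 (-0.75 ± 0.09 in total RNA and -0.55 ± 0.11 in RPF) and, in RPF alone, of Jak1 (-0.40 ± 0.06). Gbp2, Gbp4, Gbp5, Gbp7, Irf1 and Irf9 passed the test in neither kind of library, whereas Gbp3 rose in both.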

How the data were processed

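Total cytoplasmic RNA and RPF were measured in 3 control and 3 *Rnmt* cKO cultures. The authors trimmed adapters with cutadapt, removed rRNA and tRNA reads with Bowtie, aligned the rest to mm10 with STAR 2.5.2b and deposited counts of uniquely mapped reads per gene for both strands. The deposited table of 10126 genes holds normalised signal, used here only for its gene symbols, beside the fold changes and p-values of the authors' own comparisons, which were not used. Reverse-strand counts were used, since they match the deposited signal within 1e-6 for 100% of genes. The 4 rows of each file that name no gene were left out.

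Within total RNA and within RPF, genes whose CPM exceeded 1 in 3 or more of 6 libraries were tested for genotype alone with edgeR 4.0.16 (R 4.3.3, TMM, quasi-likelihood), with Benjamini-Hochberg adjustment over all genes. TE was tested as the interaction of genotype and kind over 12 libraries, for genes that passed both filters. DESeq2 1.42.0 was an alternative, and the fits were tested on simulated data. Fold changes are given ± SE and levels ± SD. Total RNA and RPF of the same replicate number were taken as 1 culture, since their deviations correlated in every pair (r from 0.11 to 0.38), and TE was also fitted with the culture as a block. Unless the block is named, TE results are from the fit without it, which treats the 12 libraries as independent. The depth of 4123271 to 22629563 gene counts per library left a median SE of 0.072, 0.068 and 0.10 (log2) for the 48 genes in total RNA, RPF and TE.

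The genes and lists were chosen with earlier results of these data known. Named in full were Psmb5 to Psmb10, Psme1 and Psme2, the 3 largest rises and falls past the threshold in each comparison, genes past it in TE and genes called in opposite directions. From each list, up to 3 genes with the largest change past the threshold and Pomp, Adrm1, Nfe2l1, Nfe2l2 and Ifng were named. Other genes were named after their values were seen, to account for each class. Shared words were counted over GENCODE vM21 transcripts. Protein sequences were not used here, and some genes of the lists are not reported here by name.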

Additional observations from a re-analysis of the deposited data

Results flagged for a closer look

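The effect of genotype differed between total RNA and RPF in 9 of the 48 genes, by the interaction test of edgeR over all 10668 genes (3 cultures a group). The TE log2 fold change of cap subunits was -0.74 for Psmc2 (adjusted p = 0.017), -0.46 for Psmc3 (0.013), -0.64 for Psmc5 (8.0e-04), -0.72 for Psmd1 (9.7e-05), -0.42 for Psmd12 (0.031) and -0.60 for Psmd2 (0.0022). Of core subunits it was 0.46 for Psma4 (0.015), 0.60 for Psma5 (0.023) and 0.44 for Psmb1 (0.0086). In the 6 fits without 1 library, the calls of Psmc5, Psmd1 and Psmd2 were made every time, and 0 of the 3 core calls were. Psma4 and Psma5 have 63.0% and 90.4% of their footprint-length words in another gene, so their values are uncertain. Groups of 3 were not tested for outlying libraries.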

How the results depend on the processing

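Over the alternatives run, 1677 of 1824 single-gene log2 fold changes of the 48 genes kept their direction and side of the threshold, 115 were no longer past it, 32 came past it and 0 reversed. The cause of the changes below was not tested. Library sizes without TMM gave a median of 0.091 in total RNA and 3 genes that fell in RPF. The exact test of edgeR, which cannot be run for TE, gave 2 that fell in RPF. With no filter on low counts the RPF median was 0.020 for all 48 genes and 0.19 for the core. With the replicate block, 6 cap subunits rose and 1 core subunit fell in total RNA, and 5 genes rose in TE. The block of total RNA or RPF joins cultures that share only a number (r from -0.48 to 0.28 between genotypes), and the block of TE joins total RNA and RPF of the same number, which deviated together.

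Without the 9 genes with over 50% of words shared, an alternative chosen after seeing the data, the median was 0.096 in total RNA and 0.14 for the core in RPF. In TE 1 gene rose, a core subunit, with a median of 0.17 for the core, and the median of all turned to -0.017.

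Without 1 library at a time, 11 to 16 genes rose and 3 to 9 fell in total RNA, 3 to 9 rose and 3 to 6 fell in RPF, and 0 to 5 rose and 3 to 7 fell in TE. The medians of all were 0.019 to 0.085 in RPF and 0.0034 to 0.085 in TE. The core median in total RNA was -0.026 to 0.037, with 0 to 3 core subunits that fell, and 1 to 7 core subunits rose in RPF and 0 to 4 in TE. In the cap, 6 to 9 rose in total RNA with a median of 0.23 to 0.32, and 3 to 7 fell in TE. The lowest depth, in RPF of *Rnmt* cKO replicate 3, limits the precision of genes with few counts such as Psme2b.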
